A study of Mus musculus with 4 samples.

Results

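The genes described here are 49 genes of hepatic stellate cells and of the extracellular matrix, out of 20642 gene symbols measured by PRO-seq in mouse liver. They were chosen by name, as collagens, other matrix proteins, matrix enzymes, contractile proteins, growth factor receptors and stellate cell markers, by a list drawn up with earlier results of these data in view, so the counts over them are a description and not independent evidence of a direction. Where a symbol had several transcripts, the one with the highest mean promoter-proximal reads over all libraries was to be used. Each of the 49 had 1 transcript, so that step chose nothing.

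PRO-seq (precision nuclear run-on sequencing) maps RNA polymerase that is engaged in transcription. The study compared livers of C57BL/6 mice at postnatal day 14 that were wildtype for Hdac3 (Alb-Cre+ Hdac3+/+, called WT) with livers in which the histone deacetylase gene Hdac3 was deleted (Alb-Cre+ Hdac3 fl/- or fl/fl, called KO), to find where HDAC3 acts on transcription. All mice of both groups carried Alb-Cre, a Cre recombinase driven by the albumin promoter, which is active in hepatocytes. Each of the 4 libraries (WT1, WT2, KO1 and KO2) came from the nuclei of livers pooled from 9 mice, so stellate cells were measured within whole liver and not after a sort. For each transcript the authors counted reads in a promoter-proximal region, which is the 50 bp window with the most reads around the start site, and in the gene body, and multiplied the counts by 1 factor for each library. All values below are these normalized reads unless they are given per kb.

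Hepatic stellate cells lie between the sinusoidal endothelium and the hepatocytes, where they store vitamin A and keep up the sparse basement-membrane-like matrix of the liver lobule. After injury they can become contractile, matrix-producing myofibroblasts under transforming growth factor beta and platelet-derived growth factor, and they are the main source of fibrillar collagen in the scarred liver. Collagens are built from several chains, are cross-linked outside the cell by lysyl oxidases, and are held in a network of laminins, proteoglycans and glycoproteins that metalloproteinases cut and their inhibitors protect.

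Reads on genes ranged from 16628518 in KO2 to 26190040 in WT2. The share of these reads in promoter-proximal windows was 10.3% and 9.38% in the WT libraries and 13.6% and 17.0% in the KO libraries. Gene body reads of Hdac3 itself were 665 and 648 in WT against 609 and 582 in KO, a log2 change of -0.14 (SE 0.13, limma adjusted p = 0.413), so these reads give no check of the deletion.

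RefSeq held the start of 33 of the 49 genes, with 36 promoters in the GRCm38.p6 assembly. The 250 bases before the start are shown for 4 genes whose promoter-proximal reads were higher in both KO libraries. Promoters that hold the letters TATAAA can so be read beside one without. The first 3 hold that match and are those of Col3a1 (chr1:45311288-45311537, plus strand), Postn (chr3:54360857-54361106, plus strand) and Ecm1 (chr3:95739570-95739819, minus strand). In Col3a1 the match lies further from the counted start than in Postn and Ecm1. The last is that of Colec11 (chr12:28623331-28623580, minus strand), in which none of the 6 motifs searched was present. Capitals mark TATAAA (the TATA box), CCAAT (the CCAAT box), GGGCGG (the GC box), TGANTCA (the AP-1 motif), GGAATG (the TEAD motif) and the CArG box, on either strand.
Col3a1: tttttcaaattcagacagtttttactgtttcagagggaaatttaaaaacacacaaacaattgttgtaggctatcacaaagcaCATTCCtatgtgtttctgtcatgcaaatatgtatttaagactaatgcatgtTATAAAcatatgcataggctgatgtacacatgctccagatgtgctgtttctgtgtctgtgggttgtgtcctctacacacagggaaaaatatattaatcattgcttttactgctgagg
Postn: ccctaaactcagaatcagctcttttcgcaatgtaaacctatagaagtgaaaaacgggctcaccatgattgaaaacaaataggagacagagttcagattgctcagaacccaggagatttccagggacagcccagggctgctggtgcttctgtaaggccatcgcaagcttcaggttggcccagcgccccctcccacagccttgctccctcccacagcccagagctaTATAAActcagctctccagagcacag
Ecm1: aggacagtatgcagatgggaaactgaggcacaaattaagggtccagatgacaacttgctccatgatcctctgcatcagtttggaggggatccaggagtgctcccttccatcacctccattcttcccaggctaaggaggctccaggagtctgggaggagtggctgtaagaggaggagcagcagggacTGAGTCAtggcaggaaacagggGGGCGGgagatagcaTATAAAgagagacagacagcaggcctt
Colec11: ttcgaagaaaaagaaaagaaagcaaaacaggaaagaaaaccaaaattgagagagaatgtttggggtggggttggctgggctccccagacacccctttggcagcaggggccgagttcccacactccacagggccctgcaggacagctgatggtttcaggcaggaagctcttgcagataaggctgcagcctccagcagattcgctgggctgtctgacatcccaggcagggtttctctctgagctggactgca

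The TATA box was present in 13.9% of the 36 promoters of these genes, against 6.71% of the 11588 promoters of active genes. Over all 32851 promoters the share was 12.4%, and over the 30 promoters of members called higher in the gene body it was 10%. The 36 include promoters of the inactive genes Tgfb2, Timp1 and Gfap, and that of Tgfb2 holds the TATA box. The sets are therefore unlike, and an excess of the TATA box in these genes is not shown. The GC box was present in 55.6% of the 36 promoters against 56.1% of those of active genes, and the CCAAT box in 27.8% against 35.2%. The TEAD motif was found in 13.9% against 10.8%, and the AP-1 motif in 5.56% against 4.66%. The CArG box, the DNA element bound by serum response factor, was found in 2.78% against 1.19%, which is the 1 promoter of Myl9. Median GC content was 58.8% in these promoters and 59.6% in those of active genes. With 36 promoters these shares rest on few genes, and a match of letters does not show that a factor binds.

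Of the 49 genes, 43 were active, which means that they had reads in the promoter-proximal window and over 4 gene body reads per kb as a mean of the 4 libraries. They are a part of the 12705 active genes on which the tests were run. The 6 others (Lama1, Lox, Lum, Timp1, Tgfb2 and Gfap) were too low to be tested. Of the 43, 5 passed the density limit only through the KO libraries (Col5a2, Col15a1, Col6a1, Col6a3 and Loxl1), and these had to be higher in KO to be tested at all.

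In the gene body, 38 of the 43 active genes were higher in KO at an adjusted p under 0.05 and a log2 change over 0.6 in limma, and 2 were lower (Fn1 and Col18a1). Over all active genes 10.4% were called higher and 11.4% lower by the same test. Among the 38 genes that passed the density limit in WT alone, 33 were higher, 2 lower and 3 not called. The median log2 change of the 43 was 1.17, against -0.09 over all active genes, with quartiles of 0.83 and 1.38. Counted without a filter or a test, both KO libraries lay above both WT libraries for 46 of the 49 genes and below them for Fn1 and Col18a1, and the groups overlapped for Timp1. The calls depended on the set of genes fitted. With all 20642 symbols in 1 fit, inactive ones included, limma called 10 of the 49 higher and 1 lower, where 1.97% of all symbols were called higher and 2.85% lower, and 34 of the 49 were higher and 2 lower at an unadjusted p under 0.05 with the same size limit. Of the active ones, both KO libraries lay above both WT libraries for 41 of 43, against 27.6% of all active genes. In whole-liver nuclei, more nuclei of a cell type and more transcription in each of its nuclei cannot be told apart.

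**Figure D1:**
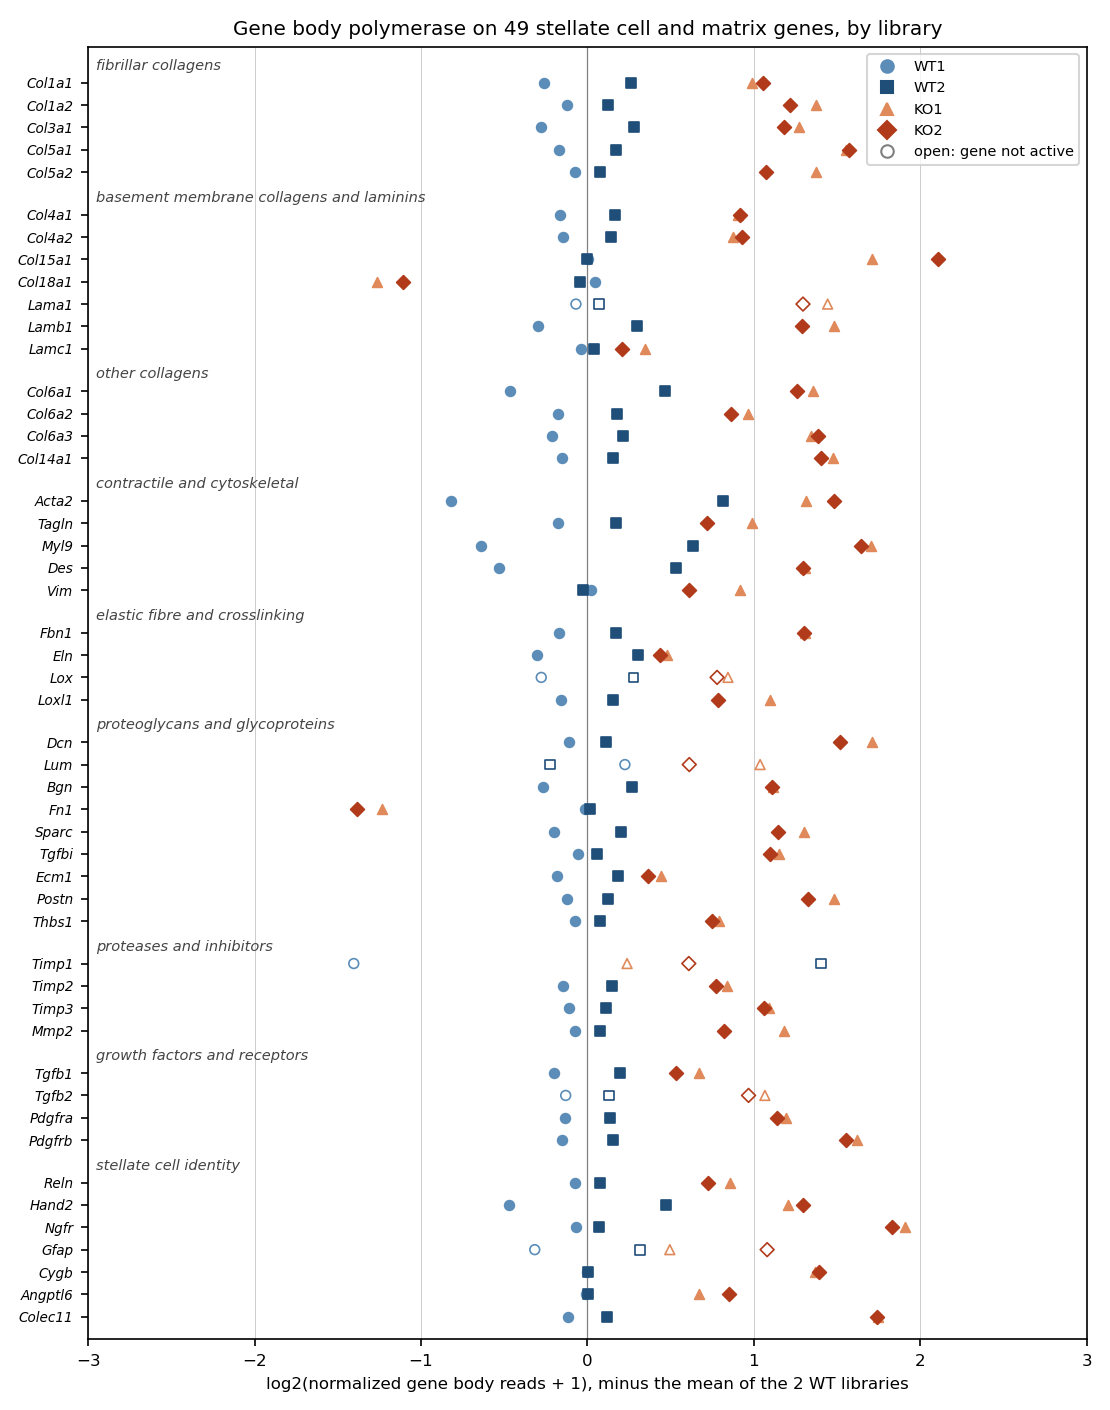
Each row is 1 gene, and each symbol 1 library, with the gene body level on the x axis as log2(normalized reads + 1) minus the mean of the 2 WT libraries. The KO symbols lie to the right of both WT symbols for 46 of the 49 genes and to the left for Fn1 and Col18a1, and WT1 lies left of WT2 for most genes. Open symbols mark the 6 genes that were not active.

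The 2 WT libraries were not alike over these genes. WT1 lay below WT2 for 40 of the 43 active genes, with a median log2 difference of -0.31 between them, against -0.03 over all active genes. The KO libraries differed by a median of 0.06. Set against each WT library in turn, the KO libraries gave 4 positive medians, between 0.84 (KO2 over WT2) and 1.37 (KO1 over WT1). In each of these pairs 41 of the 43 genes were higher in KO. Without WT1 the median change of the 43 genes was 0.84 in place of 1.17. With 2 libraries a group, an exact permutation test of a single gene cannot give a two-sided p under 0.33, so the p-values below rest on limma's pooling of the spread over all genes.

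The fibrillar collagens form the banded fibres of the stroma, and all 5 were higher in the KO gene bodies. Col1a1, the main chain of type I collagen, had 137 and 197 reads in WT and 327 and 342 in KO, a log2 change of 1.02. Col1a2, the second type I chain, had 256 and 304 reads in WT and 723 and 649.8 in KO, a change of 1.29. Col3a1, which encodes type III collagen of reticular fibres, had 328 and 483 reads in WT and 961 and 905 in KO, a change of 1.23. In none of these did the groups overlap, and on the log2 scale the KO libraries differed from each other less than the WT libraries did. Col5a1 and Col5a2 encode chains of type V collagen, which starts fibrils and limits their width. Col5a1 had 1509.9 and 1919 reads in WT and 5004 and 5056 in KO, a change of 1.56, the largest of the fibrillar chains. Col5a2 had 472 and 523 reads in WT and 1288 and 1048 in KO, a change of 1.22, and was one of the genes active only through KO. Adjusted p-values from limma for the 5 ranged from 4.5e-10 (Col5a1) to 8.1e-05 (Col1a1). Per kb of gene body, Col5a1 was 2.69 and 3.09 times Col5a2 in WT and 3.27 and 4.06 times in KO, while Col1a1 was 1.27 and 1.55 times Col1a2 in WT and 1.08 and 1.26 times in KO.

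The basement membrane genes went in both directions. Col4a1 and Col4a2 encode the chains of the common type IV collagen network and are transcribed away from each other from neighbouring starts. Col4a1 had 3978 and 5012 reads in WT and 8363 and 8428 in KO, a log2 change of 0.91. Col4a2 had 3451 and 4219 reads in WT and 6985 and 7280.2 in KO, a change of 0.90. Their ratio per kb stayed between 1.38 and 1.43 in the 4 libraries, so both chains moved by nearly the same factor. Lamb1, the laminin beta 1 chain, had 446 and 674 reads in WT and 1533 and 1341 in KO, a change of 1.38. Lamc1, the gamma chain that most laminins share, had 2267 and 2390 reads in WT and 2958 and 2694 in KO, a change of 0.28 (limma adjusted p = 0.048) that was below the size limit. The Lamb1 to Lamc1 ratio per kb was 0.35 and 0.50 in WT and 0.92 and 0.89 in KO. Lama1, a laminin alpha chain of embryonic basement membranes, was not active, with 232 and 255 reads in WT and 663 and 598 in KO.

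Type XV and type XVIII collagen, a related pair of basement membrane collagens, moved in opposite directions. Col15a1 had 316 and 314 reads in WT and 1032 and 1360.4 in KO, a change of 1.91 (SE 0.14, limma adjusted p = 3.9e-10), the largest rise of all 43 genes and the gene ranked 32 among the 12705 active genes. It had only 3.02 reads per kb in WT, so it was tested through its KO level. Col18a1, the precursor of endostatin, had 27545 and 25936 reads in WT and 11126 and 12377 in KO, a change of -1.19 (SE 0.12, limma adjusted p = 2.2e-08). The groups were far apart for both genes. Their promoter-proximal windows held hardly any reads, with 0 and 3 reads in WT and 3.18 and 1.52 in KO for Col15a1 and 2.29 and 2 reads in WT and 5.3 and 7.59 in KO for Col18a1. Both were counted from the most upstream of 5 annotated protein-coding starts, and the next coding start lies 79896 bp downstream in Col15a1 and 52602 bp downstream in Col18a1, so reads from a downstream start would fall in the counted gene body and not in the counted window.

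The 4 other collagens were all higher in KO. Type VI collagen forms beaded filaments around cells from the products of Col6a1, Col6a2 and Col6a3. Col6a1 had 42.5 and 82 reads in WT and 153 and 143 in KO, a change of 1.31. Col6a2 had 104 and 134 reads in WT and 232 and 216 in KO, a change of 0.91. Col6a3 had 257 and 346 reads in WT and 759.5 and 782 in KO, a change of 1.37. The groups did not overlap for any of these 3, though WT2 was well above WT1 for Col6a1, whose change was not called without KO1 (1.26, limma adjusted p = 0.051). Col14a1, whose product sits on the surface of collagen fibrils, had 1403 and 1740 reads in WT and 4342 and 4139 in KO, a change of 1.44. Limma adjusted p-values for the 4 ranged from 1.3e-09 (Col14a1) to 0.00046 (Col6a2).

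The contractile and cytoskeletal genes were higher in KO with the widest spread in WT. Acta2 encodes smooth muscle actin, the usual marker of activated stellate cells and of vascular smooth muscle. It had 26.4 and 84 reads in WT and 119 and 134 in KO, a log2 change of 1.40 (SE 0.34, limma adjusted p = 0.0019). WT1 alone was very low, and WT2 lay nearer to the KO libraries than to WT1. Without WT1 the change was 0.58 (limma adjusted p = 0.069), and Acta2 was also not called without KO1 (1.48, adjusted p = 0.098) or without KO2 (1.31, adjusted p = 0.14). Tagln, the actin-binding protein transgelin, had 143 and 183 reads in WT and 322 and 267 in KO, a change of 0.85 that was not called without KO1 (0.72, limma adjusted p = 0.060). Myl9, a regulatory myosin light chain, had 48.2 and 118 reads in WT and 248 and 238 in KO, a change of 1.67. Des, the intermediate filament desmin that marks rodent stellate cells, had 42.5 and 90 reads in WT and 155 and 153 in KO, a change of 1.30, with WT2 far above WT1. Its call was lost without KO1 (1.29, limma adjusted p = 0.058) and without KO2 (1.31, adjusted p = 0.055). Vim, the intermediate filament vimentin of mesenchymal and other non-epithelial cells, had 556 and 538 reads in WT and 1035 and 835 in KO, a change of 0.76, with the WT libraries close together.

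Among the elastic fibre genes, Fbn1, the microfibril protein fibrillin 1, had 849 and 1078 reads in WT and 2369 and 2358 in KO, a change of 1.30. Loxl1, a lysyl oxidase that acts on elastin, had 80.3 and 100 reads in WT and 193 and 155 in KO, a change of 0.94, and was active only through KO. Without KO1 it was not called (0.78, limma adjusted p = 0.067). Eln, elastin itself, had 563 and 859 reads in WT and 969 and 939.8 in KO, a change of 0.46 (limma adjusted p = 0.021), which was below the size limit although the KO libraries were both higher. Lox, the lysyl oxidase that cross-links collagen, was not active, with 12.6 and 19 reads in WT and 28.6 and 27.3 in KO. Whether Eln changed less than Fbn1 was not tested.

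The proteoglycans and glycoproteins held the gene with the highest level per kb and the largest fall. Fn1, fibronectin, which fibroblasts put into the matrix and which hepatocytes secrete into plasma, had 38848 and 39685 reads in WT and 16688 and 15071 in KO, a log2 change of -1.31 (SE 0.12, limma adjusted p = 7.8e-09). The mean of the KO libraries was 40.4% of that of the WT libraries, and Fn1 was the only one of the 43 genes called lower in both regions. Fn1 alone made up 36.4% and 32.6% of the summed gene body reads per kb of the 49 genes in WT, and 11.4% and 10.8% in KO. Col18a1, the other gene called lower in the gene body, made up 15.15% and 12.5% in WT and 4.45% and 5.21% in KO. The summed level of all 49 genes, Fn1 and Col18a1 included, was 1604 and 1828 reads per kb in WT and 2204 and 2095 in KO.

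The small leucine-rich proteoglycans of this group were higher. Dcn, decorin, which coats collagen fibrils and binds transforming growth factor beta, had 689.5 and 803 reads in WT and 2437 and 2136 in KO, a change of 1.62. Bgn, biglycan, had 262 and 380 reads in WT and 684 and 680.2 in KO, a change of 1.11. Lum, lumican, was not active, with 19.5 and 14 reads in WT and 35 and 25.8 in KO. The glycoprotein Sparc, also called osteonectin, had 1417 and 1869 reads in WT and 4017 and 3597 in KO, a change of 1.22. Tgfbi, an adhesion protein induced by transforming growth factor beta, had 1128 and 1222 reads in WT and 2608 and 2517 in KO, a change of 1.13. Postn, periostin, which is secreted by fibroblasts in growing and injured tissue, had 182 and 217 reads in WT and 557 and 499.5 in KO, a change of 1.40. In none of the active ones among these did a KO library fall into the WT range. Thbs1, thrombospondin 1, which can release active transforming growth factor beta, had 122 and 135 reads in WT and 223 and 216 in KO, a change of 0.77. Ecm1, a secreted matrix glycoprotein, had 176 and 226 reads in WT and 270.5 and 257 in KO, a change of 0.40 (limma adjusted p = 0.072), and was not called.

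The protease Mmp2, gelatinase A, had 97.5 and 108 reads in WT and 234 and 182 in KO, a change of 1.0. Both active inhibitor genes were higher as well. Timp2, which also takes part in activating Mmp2, had 618 and 759 reads in WT and 1225 and 1174 in KO, a change of 0.81, although part of its gene body is shared with Cep295nl on the same strand, so the source of those reads is uncertain. Timp3, the inhibitor that stays bound to the matrix, had 828 and 964 reads in WT and 1907 and 1869 in KO, a change of 1.08. Timp1, the inhibitor best known from activated stellate cells, was not active, with 0 and 6 reads in WT and 2.12 and 3.04 in KO, and was the only one of the 49 genes in which the groups overlapped in the gene body.

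The receptors for platelet-derived growth factor were both higher. Pdgfrb, the main receptor on stellate cells and pericytes, had 528 and 654 reads in WT and 1808 and 1726 in KO, a log2 change of 1.59 (SE 0.13, limma adjusted p = 1e-09). Pdgfra, found on stellate cells and fibroblasts, had 379 and 458 reads in WT and 955 and 919 in KO, a change of 1.17. The ratio of Pdgfra to Pdgfrb per kb was 0.62 and 0.61 in WT and 0.46 in both KO libraries. Tgfb1, the ligand that drives fibrosis, had 1867 and 2460 reads in WT and 3418 and 3103 in KO, a change of 0.60, which is just over the size limit. In a fit on recovered reads its change was 0.59 with edgeR and with DESeq2, which is just under that limit. It was also not called without WT1 (0.40, limma adjusted p = 0.014) or without KO1 (0.53, adjusted p = 0.054). Its relative Tgfb2 was not active, with 153 and 183 reads in WT and 351 and 328 in KO.

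All 6 active stellate cell identity genes were higher in the KO gene bodies. Ngfr, the p75 neurotrophin receptor of stellate cells, had 166 and 183 reads in WT and 657 and 624 in KO, a log2 change of 1.87 (SE 0.15, limma adjusted p = 1.2e-09). Colec11, a collectin expressed by stellate cells, had 443 and 522 reads in WT and 1618 and 1608 in KO, a change of 1.74. These were the next largest rises after Col15a1. Cygb, cytoglobin, had 90.6 and 91 reads in WT and 236 and 239.9 in KO, a change of 1.38, with the WT libraries nearly equal. Hand2, a transcription factor of the stellate cell lineage, had 125 and 242 reads in WT and 402 and 428 in KO, a change of 1.25, with WT2 far above WT1. Reln, reelin, a secreted glycoprotein that in the liver marks stellate cells, had 7467 and 8270 reads in WT and 14249 and 13007 in KO, a change of 0.79. Angptl6, an angiopoietin-like factor, had 117 and 118 reads in WT and 188 and 213 in KO, a change of 0.76 (limma adjusted p = 0.0023), which was lost without KO2 (0.67, adjusted p = 0.073). In all 6 the groups were apart. Gfap, a glial filament protein that marks a part of the stellate cells, was not active, with 8.03 and 13 reads in WT and 14.9 and 22.8 in KO.

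**Figure D2:**
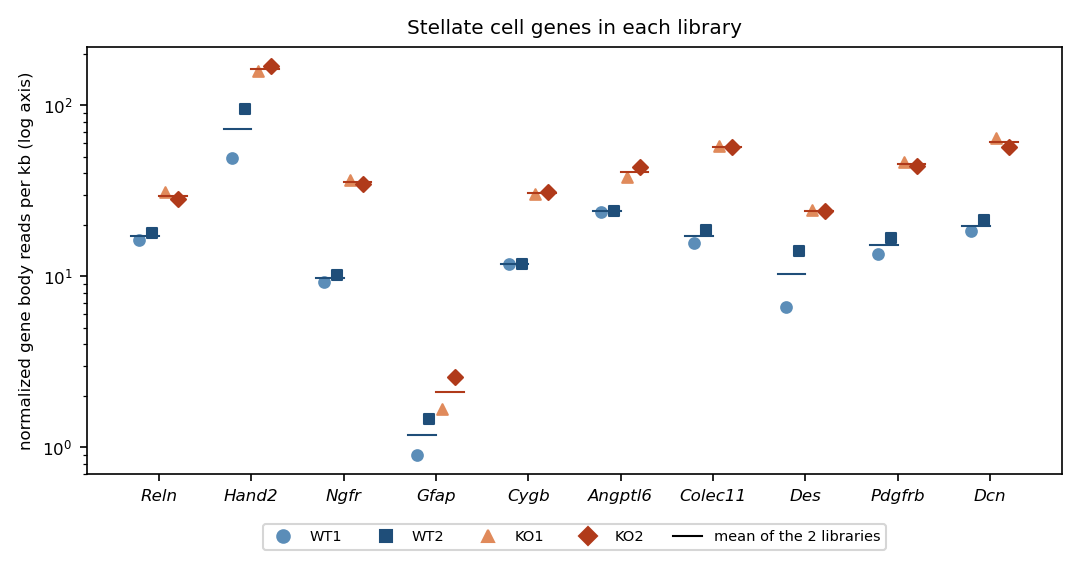
Gene body level in normalized reads per kb, on a log axis, of 10 stellate cell genes in the 4 libraries, with a line at the mean of each group. Both KO libraries lie above both WT libraries for each gene, and Gfap is the lowest, at 1.19 reads per kb in WT and 2.12 in KO as group means.

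The label of the set was checked on the other genes of these cells. Of 22 defining stellate cell genes, 21 were active and none was at 0, and 11 of them are among the 49. Lrat, the enzyme that esterifies retinol for storage in stellate cells and no member of the set, had 321 and 303 gene body reads in WT and 994 and 937 in KO, a log2 change of 1.63 (SE 0.13, limma adjusted p = 1.6e-09). Of 22 active stellate cell and pericyte genes outside the set, 18 were higher in the gene body and the others were not called, with a median log2 change of 1.28. Of all active genes, 10.4% were called higher and 11.4% lower. These lists too were chosen with earlier results of these data known, so the counts are a description. The largest rise among those outside the set was in Rgs5, a regulator of G-protein signalling typical of pericytes. It had 235 and 262 reads in WT against 1459 and 1350 in KO, a change of 2.49. Rgs5 was followed by the potassium channel gene Kcnj8 at 2.01 and by Gucy1a3, a subunit of the nitric oxide receptor, at 1.68.

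Related lists held genes that rose and genes that fell. Their counts stand beside 10.4% of all active genes called higher in the gene body and 11.4% called lower. Of 26 other active matrix genes, 16 were higher and 3 lower. Thbs2, Prelp and Fbln2 rose most, by 1.42, 1.42 and 1.24 on the log2 scale. The fallers were Npnt (-2.86), Vtn (-1.68) and Smoc1 (-0.77), of which Vtn encodes vitronectin, a plasma protein that hepatocytes secrete. Of 28 matrix enzymes and their regulators, 15 were higher, led by Plau (1.53), Pcolce (1.51) and Plod2 (1.41), and 3 were lower (Sulf2 at -1.60, Bmp1 at -1.29 and Mmp19 at -0.91). Pcolce enhances the trimming of procollagen and Plod2 hydroxylates collagen lysines, while Bmp1 is the protease that trims procollagen. Of 5 other active collagens, Col13a1 (0.94) and Col9a3 (0.88) were higher. Of 32 active genes of the transforming growth factor beta and platelet-derived growth factor pathways, 11 were higher and 1 was lower, with a median of 0.50, and Cyr61, a matricellular protein gene, led with 1.14.

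Marker genes of other liver cell types were counted in the same way, against 10.4% of all active genes called higher in the gene body and 11.4% called lower. Of 20 endothelial genes 16 were higher and the others were not called, with a summed level of 2923 and 3269 reads per kb in WT and 5601 and 5043 in KO. Of 19 hepatocyte genes 13 were lower and the others were not called, and their summed level was 59030 and 61157 reads per kb in WT against 26318 in both KO libraries. None of the active genes of these lists was at 0 in a group. The libraries were scaled to nearly the same total, so each level is a share of its library. Of 18 Kupffer cell and myeloid genes 2 were higher, a share near that of all active genes, with a summed level of 2056 and 2362 in WT and 2659 and 2270 in KO, which overlap. Of 16 smooth muscle and contractile genes outside the set 5 were higher and 1 lower (Mylk, -1.15). Of 5 active portal fibroblast and mesothelial genes 2 were higher (Fbln2 and Thy1), of 7 cholangiocyte genes 1 was higher and 2 were lower, of 7 erythroid genes 1 was higher and 5 were lower, and of 16 cell cycle genes 1 was lower. The part of any change in cell make-up in the values of the 49 genes was not tested.

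**Figure D3:**
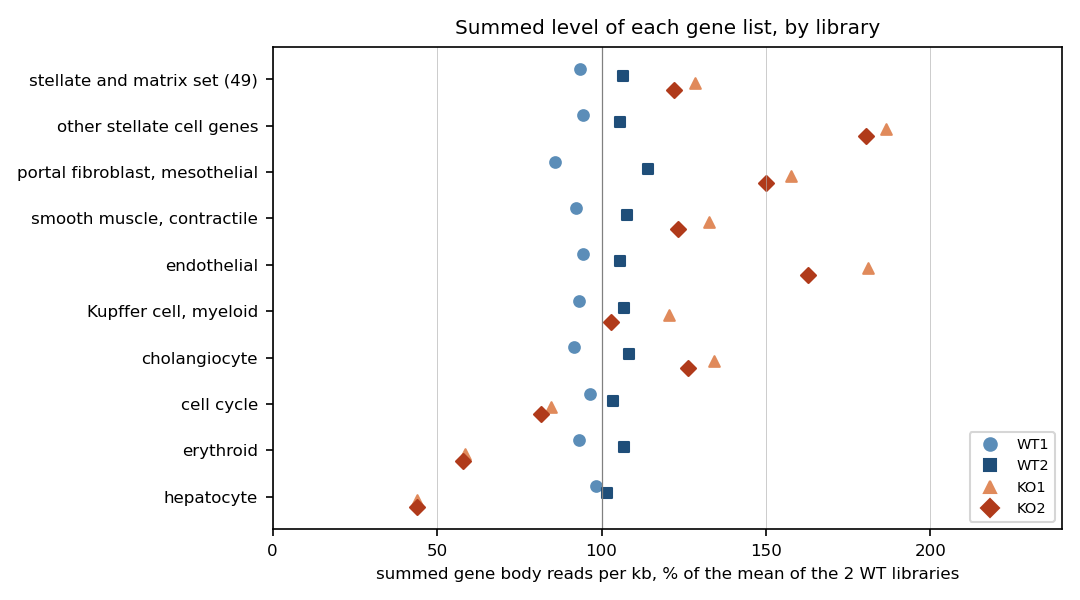
Summed gene body reads per kb of each gene list in each library, as a percentage of the mean of the 2 WT libraries. The 49 genes of the set, Fn1 and Col18a1 included, stand at 128% and 122% in KO1 and KO2. The other stellate cell genes stand at 187% and 181%, the endothelial genes at 181% and 163%, and the hepatocyte genes at 43.8% in both. Without Fn1 and Col18a1, both called lower in the gene body, the set stands at 208% and 198% in KO1 and KO2, which is not drawn.

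At the promoter-proximal region, 35 of the 43 active genes were higher in KO by the same limits and 1, Fn1, was lower. In the deposited scaling this region was higher in KO over the active genes as a whole, where 25.8% of all active genes were called higher and 2.2% lower, with a median log2 change of 0.56. The median of the 43 genes was 1.57, which is 1.01 above that of all active genes. Both KO libraries lay above both WT libraries for 39 of the 43, against 61.9% of all active genes. When each region was scaled to its own median of ratios, which removes the shift over all genes, 27 of the 43 were called higher and 2 lower (4.99% and 7.41% of all active genes), with a median of 1.04. The 2 called lower were Fn1 and the stellate cell identity gene Reln (-0.82, limma adjusted p = 0.022). Tagln changed sign, from 0.20 to -0.36. Single libraries moved the count of 35, and the share of all active genes called higher with it. It was 22 without WT1 (5.53% of all active genes), 19 without KO2 (2.51%), 29 without WT2 (3.88%) and 35 without KO1 (27.7%). With all 20642 symbols in 1 fit, limma called 0 of the 20642 at this region and so 0 of the 49, of which 37 were higher and 1 lower at an unadjusted p under 0.05 with the same size limit. On the recovered reads of active genes edgeR and DESeq2 each called 34 higher, with 3251 and 2799 called higher of all 12705 active genes. Of the genes called higher at the promoter-proximal region, 33 of 35 (94.3%) in the set were also called higher in the gene body. Over all active genes this was 897 of 3282 (27.3%). Both the 35 and the 33 include Col5a2, Col6a1 and Col6a3, which passed the density limit only through the KO libraries. Their gene bodies had to be higher in KO to be tested, so the share of the set is a description.

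The largest promoter-proximal rise was that of Angptl6, which was among the smaller ones in the gene body. It had 13.8 and 12 reads in WT and 101 and 72.9 in KO, a log2 change of 2.65 (SE 0.40, limma adjusted p = 1.6e-08). Pdgfrb had 25.2 and 30 reads in WT and 137 and 182 in KO, a change of 2.48, and Des had 26.4 and 38 reads in WT and 141 and 188 in KO, a change of 2.33. The KO libraries were several times the WT libraries in each. Dcn had 127 and 112 reads in WT and 580.3 and 615 in KO, a change of 2.31 (limma adjusted p = 1.3e-10), and Hand2 had 188 and 200 reads in WT and 824 and 868 in KO, a change of 2.12. Lamb1 had 24.1 and 35 reads in WT and 134 and 155 in KO, a change of 2.27. The 2 chains of type I collagen belong to the same group, with 79.2 and 128 reads in WT and 376 and 411 in KO for Col1a1 and 96.4 and 110 reads in WT and 490.1 and 466 in KO for Col1a2, changes of 1.95 and 2.20. Mmp2 had 8.03 and 13 reads in WT and 48.8 and 51.6 in KO, a change of 2.19. In all of these genes the promoter-proximal change was larger than the gene body change. That was so for 36 of the 43 active genes of the set and for 88.8% of all active genes, so it is not particular to them.

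The windows of some genes were shallow. The mean was under 20 reads for 5 of the 43 active genes, and others held few reads in WT. Ngfr had 21.8 and 28 reads in WT and 63.6 and 89.6 in KO and Colec11 had 18.4 and 10 reads in WT and 32.9 and 50.1 in KO, so these genes, next to Col15a1 in their gene body rise, were counted on few reads at the start, with changes of 1.57 and 1.51. Acta2 had 1.15 and 4 reads in WT and 6.36 and 10.6 in KO, a change of 1.50 that was not called with edgeR on recovered reads (limma adjusted p = 0.023, edgeR adjusted p = 0.074). Without WT1 it was 0.89 (limma adjusted p = 0.28) and without KO2 1.17 (adjusted p = 0.20). The type VI collagen chains had 5.74 and 6 reads in WT and 27.6 and 36.4 in KO for Col6a1, 9.18 and 11 reads in WT and 29.7 and 38 in KO for Col6a2 and 8.03 and 10 reads in WT and 41.4 and 48.6 in KO for Col6a3. In these 3 chains too both KO libraries lay above both WT libraries, as they did for 61.9% of all active genes at this region. Ngfr was not called without WT1 (1.40, limma adjusted p = 0.11) or KO2 (1.33, adjusted p = 0.097), and Colec11 not without WT2 (1.10, adjusted p = 0.25) or KO2 (1.22, adjusted p = 0.16). Col6a2 was not called without WT1 (1.53, limma adjusted p = 0.084) or KO2 (1.47, adjusted p = 0.088). The windows with the most reads in KO were those of Vim, with 407 and 464 reads in WT and 1102 and 1196 in KO, and Col4a2, with 453 and 366 reads in WT and 831 and 1239 in KO, which changed by 1.40 and 1.31. The call for Col4a2 was lost without WT2 (1.16, limma adjusted p = 0.093) and without KO2 (1.03, adjusted p = 0.065). Sparc had 173 and 191 reads in WT and 513 and 664 in KO, a change of 1.68.

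A few genes were called in only 1 of the 2 regions. Ecm1 had 120.5 and 118 reads in WT and 321 and 387 in KO at the promoter-proximal region, a change of 1.56, and Lamc1 had 166 and 152 reads in WT and 289.6 and 392 in KO, a change of 1.08, while neither was called in the gene body. Of the fits that left out 1 library, Lamc1 kept its call only in that without KO1, and its change was 1.14 without WT1 (limma adjusted p = 0.12), 1.01 without WT2 (adjusted p = 0.20) and 0.86 without KO2 (adjusted p = 0.10). The reverse was seen for Col15a1, Tagln, Loxl1, Bgn and Reln, which were called higher in the gene body only. Reln had 259 and 243 reads in WT and 143 and 308 in KO, a change of -0.26 (limma adjusted p = 0.53), with KO1 below and KO2 above both WT libraries. With each region scaled on its own Reln was called lower (-0.82, limma adjusted p = 0.022). Tagln had 57.4 and 70 reads in WT and 62.6 and 85 in KO, a change of 0.20, with KO1 inside the WT range. Loxl1 (1.02, limma adjusted p = 0.063) and Bgn (0.95, limma adjusted p = 0.064) were both higher in both KO libraries, with 10.3 and 14 reads in WT and 21.2 and 30.4 in KO for Loxl1 and 14.9 and 28 reads in WT and 37.1 and 44 in KO for Bgn. Eln was called in neither region, with 32.1 and 51 reads in WT and 66.8 and 79 in KO and a change of 0.83. Fn1 fell at the start as in its body, with 559.9 and 455 reads in WT and 225 and 273 in KO, a change of -1.02 (SE 0.30, limma adjusted p = 0.0068). That call was lost without WT1 (-0.87, limma adjusted p = 0.22), WT2 (-1.17, adjusted p = 0.12) or KO2 (-1.16, adjusted p = 0.052).

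**Figure D4:**
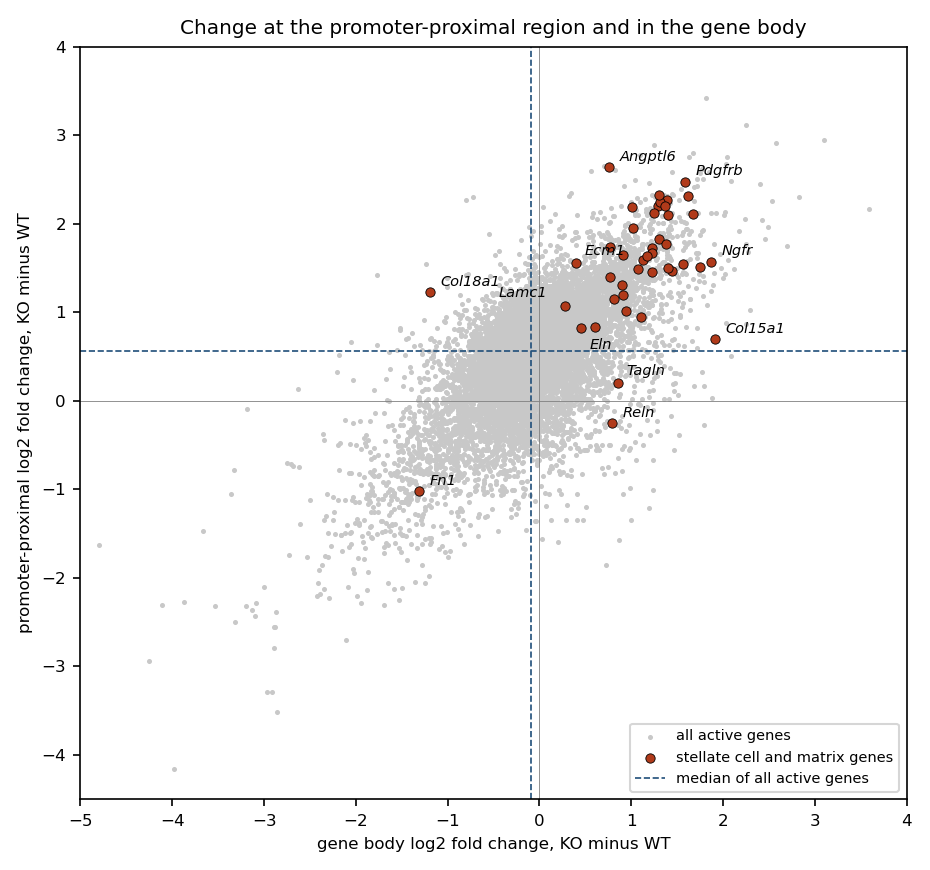
Log2 change (KO minus WT) at the promoter-proximal region on the y axis against that in the gene body on the x axis, for the 43 active genes of the set (red) over all 12705 active genes (grey), with dashed lines at the medians of all active genes. Most red points lie in the upper right and Fn1 lies in the lower left. Col18a1 has a negative gene body change and a positive change at its counted start. The latter was not called (1.23, limma adjusted p = 0.068) and rests on 2.29 and 2 reads in WT and 5.3 and 7.59 in KO.

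The pausing index divides the density in the promoter-proximal window by that in the gene body. It was called higher for 4 of the 43 genes and lower for 1, where 12.4% of all active genes were called higher and 0.519% lower. The median log2 change of the index was 0.47 in the 43 genes and 0.61 over all active genes. It was higher for Col18a1 (2.41), Angptl6 (1.89), Mmp2 (1.18) and Ecm1 (1.16). The value for Col18a1 rests on promoter-proximal windows of under 8 reads. It was lower for Reln (-1.05, limma adjusted p = 0.045), whose gene body was called higher while its window was not. These counts depended on single libraries and on the scaling, as they did over all active genes. Without KO1 17 of the 43 were called higher, where 41.4% of all active genes were, and 1 was called higher without WT1, without WT2 or without KO2, where 0.323%, 0.228% and 3.12% of all active genes were. With each region scaled to its own median of ratios limma called 0 of the 43 in either direction and 0.0472% of all active genes higher, and 2 of the 43 were higher and 6 lower at an unadjusted p under 0.05 with the same size limit.

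Enhancers were called by the authors on the reads of all 4 libraries together, so no enhancer has a value for a group. Of the 49 genes, 10 were the closest gene of a listed enhancer, which is 23.3% of the 43 active ones against 10.9% of all active genes. Within 50 kb of a listed enhancer lay 6 of the 49 genes, which is 14.0% of the active ones against 9.83% of all active genes. A contact in the 4DGenome database, which the authors' table also gives, linked an enhancer to 79.1% of the active genes of the set and to 75.8% of all active genes. Per the authors this database includes contacts from tissues other than liver, and none of the contacts of these genes was listed for liver. Some join a gene to an enhancer on another chromosome, as for Acta2 on chr19 and an enhancer on chr2. By distance, Bgn had 3 enhancers within 50 kb, at 2309, 5776 and 14413 bp from its start. Timp2 had 1 at 7079 bp, Des at 13975 bp, Col1a2 at 16000 bp, Ngfr at 22258 bp and Col14a1 at 26305 bp. Fn1 was the closest gene of 2 enhancers, at 69961 and 77625 bp, and Col4a1, Thbs1 and Dcn were the closest genes of enhancers at 139969, 148990 and 165113 bp. With 10 genes this share is a description, and the closest gene is not shown to be the gene that an enhancer acts on.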

How the data were processed

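PRO-seq reads from 4 libraries of mouse liver (2 WT, 2 KO) were processed by the authors. Per the labels they used cutadapt, Bowtie2 and the mm10 genome, and per the methods they counted reads with the NRSA program over RefSeq transcripts. The deposited table holds normalized signal, which is the read count of each promoter-proximal window and gene body multiplied by 1 factor for each library (1.15 for WT1, 1.06 for KO1 and 1.52 for KO2), and the same divided by region length. WT2 has a factor of 1, so its deposited values are counts. Dividing by the factor gave whole reads for 100% of values (tolerance 0.001). The deposited enhancer list came from all libraries pooled and holds no value for a group.

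For each of 20642 symbols the transcript with the highest mean promoter-proximal reads was taken. Genes with promoter-proximal reads and over 4 gene body reads per kb (mean of the 4 libraries) were called active. The planned test was kept: limma 3.58.1 (trend, empirical Bayes, R 4.3.3) on log2(normalized reads + 1), KO minus WT, with no covariate and with Benjamini-Hochberg adjustment over the 12705 active genes, so fold changes are on the log2(reads + 1) scale and understate those of low genes. A gene was called where its adjusted p was under 0.05 and its log2 change passed 0.6 in either direction. Each library is a pool of mice, so p-values measure the spread between pools. As alternatives the recovered reads were tested with the quasi-likelihood test of edgeR 4.0.16 and with DESeq2 1.42.0, and the rest were 2 other scalings, pseudocounts of 0.1 and 10, other activity limits, a replicate block, a crossed pairing (chosen after seeing the data) and leaving out each library. The scripts were tested on simulated data.

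The members, roles and gene lists were chosen with earlier results of these data known. Every member called in either region is given by library, as are the identity members. From each other list at most the 3 largest rises and falls with groups apart are named. Promoters and gene positions were taken from RefSeq (GRCm38.p6) and start sites from the GENCODE annotation. Motifs were searched on both strands of the 250 bases before each start. Coordinates are counted from 1.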

Additional observations from a re-analysis of the deposited data

How the results depend on the processing

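The count of genes called higher in the gene body was 37 or 38 of 43 under most alternatives that kept all 4 libraries. They called 9.59% to 12.0% of all active genes higher. An activity limit of 10.3 reads per kb left 34 genes of the set, of which 29 were called higher (9.06% of all genes tested). The fit on all symbols gave 10 of 49 higher and 1 lower (1.97% and 2.85% of all symbols). At the promoter-proximal region 27 to 38 of 43 were called higher with all 4 libraries kept, beside 4.99% to 38.3% of all active genes. With the limit of 10.3 it was 28 of 34 (26.1%), and the fit on all symbols gave 0 higher and 0 lower. With each region scaled to its own median of ratios 2 genes were called lower there (Fn1 and Reln), and the median change was 1.04. For the pausing index this scaling called 0 higher and 0 lower (0.0472% and 0.0866% of all active genes), as did the fit on all symbols. The count lower was 0 with a pseudocount of 0.1 and 2 with a pseudocount of 10 (0.449% and 0.992% of all active genes). Leaving out 1 library in turn gave 32 to 39 genes higher in the gene body, with a median of 0.84 to 1.30. It gave 19 to 35 higher and 0 to 1 lower at the promoter-proximal region, with a median of 1.47 to 1.77, and 1 to 17 higher and 0 to 1 lower for the pausing index. Changes of sign were found for 3 genes at the promoter-proximal region. Leaving out 1 library in turn, Col15a1 ranged from -0.30 (without WT replicate 1) to 1.70, Tagln from -0.018 (without KO replicate 2) to 0.42, and Reln from -0.81 to 0.30 (without KO replicate 1), and Tagln was -0.36 with each region scaled on its own. The causes were not tested. Deviations of same-numbered libraries from their group means correlated at 0.02 in gene bodies and -0.11 at promoter-proximal regions, so the numbers were not taken to pair libraries. A replicate block gave 38 higher and 2 lower in the gene body, 34 and 1 at the promoter-proximal region, and 2 and 0 for the pausing index. In the same order it called 10.4% and 11.4%, 13.9% and 1.39%, and 1.46% and 0.0945% of all active genes. A crossed pairing, added after seeing the data, gave 38 and 2, 38 and 1, and 14 and 2. Its shares of all active genes were 10.5% and 11.5%, 38.3% and 3.14%, and 32.3% and 0.921%. Shallow windows limit the promoter-proximal values, since 5 of the 43 active genes had a mean of under 20 reads there.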
